A study of Homo sapiens with 6 samples.

Results

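Pyroptosis and necroptosis are 2 forms of lytic cell death, and 10 of their core genes were followed among the 19899 genes of the table. They were chosen by symbol: the inflammatory caspases CASP1, CASP4 and CASP5, the inflammasome adaptor PYCARD, the gasdermins GSDMB, GSDMC and GSDMD, the kinases RIPK1 and RIPK3, and the pseudokinase MLKL. All 10 had a row, and they were chosen with earlier results of these data known. RNA-seq was performed on COV434 cells, an established human ovarian line that the study counts among its models of SCCOHT, a hypercalcemic small cell tumor of the ovary that lacks the SWI/SNF ATPase BRG1 (SMARCA4). Control cells (n = 3) received an empty control plasmid and BRG1 cells (n = 3) the plasmid PBJ5-BRG1. The study's methods name the control plasmid as pCMV-neo or pCDNA3-neo. Both groups also received pBABE-puro, were kept under puromycin selection (2 to 3 µg/ml, begun 24 hours after transfection) over 3 days, and were harvested as bulk pellets of transiently transfected cells, in which the share of cells carrying BRG1 was not given.

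In pyroptosis, a sensor protein recruits caspase-1, often through the adaptor ASC (PYCARD), or cytosolic lipopolysaccharide engages caspase-4 and caspase-5 directly. The activated caspase cuts a gasdermin, chiefly GSDMD, whose freed part opens pores in the plasma membrane, and caspase-1 also matures interleukin-1β and interleukin-18. In necroptosis, RIPK1 or another RHIM-domain protein engages RIPK3, which phosphorylates MLKL, and MLKL then breaches the membrane. Inflammasomes are best known in myeloid and barrier epithelial cells, and several of these genes are known interferon targets.

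Totals ran from 29699741 (BRG1 sample 3) to 63613710 (BRG1 sample 1) estimated counts. Values are given as normalised counts, the estimated counts divided by each library's size factor. The transfected gene followed the labels, with SMARCA4 between 1439 and 1676 normalised counts in Control and between 78589 and 108655 with BRG1, plasmid transcripts included. SMARCA2, the other ATPase gene, lay between 3.79 and 35.7 in all 6 samples. Of 5 granulosa cell markers, FOXL2 and FSHR held 3 rounded counts or fewer in every sample, AMH lay at 227 to 455 and INHA at 35.7 to 47.5 normalised counts with neither called, and CYP19A1 rose from 15.8 to 31.8 in Control to 251 to 455 with BRG1 (DESeq2 adjusted p 8.7e-20, edgeR adjusted p 0.000718). A level of 3 counts in a library was taken as the floor, and in these libraries it equalled 2.18 to 4.48 normalised counts. Counting error is the only error such limits cover.

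CASP4 and MLKL were higher after BRG1 reexpression, CASP1 was higher by DESeq2 but not by edgeR, and no member was called lower. At a Benjamini-Hochberg adjusted p under 0.05, DESeq2 called 3 of the 10 members higher and 0 lower, against 11.0% of all tested genes higher and 1.84% lower. Without adjustment for multiple tests, p was under 0.05 for 3 members higher and 0 lower, and for 2420 and 884 of the 18096 genes with a count. The edgeR quasi-likelihood test called 2 members higher and 0 lower, against 9.57% and 1.02% of its tested genes. In 4 members, these 3 and GSDMC, every BRG1 sample lay above every Control sample, as in 15.4% of genes with a count, and in 0 members the order was the opposite (8.88% of genes). Only 6 members carried enough counts for an adjusted p. PYCARD, GSDMD and RIPK3 were at the floor in all 6 samples and GSDMC was at 0 in Control. The median log2 fold change was 0.57 over the 7 members above the floor in a group, in which GSDMC, at 0 in Control, entered as the ratio of its BRG1 mean to the floor (0.95), and -0.02 over the 16452 genes treated alike.

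**Figure D1:**
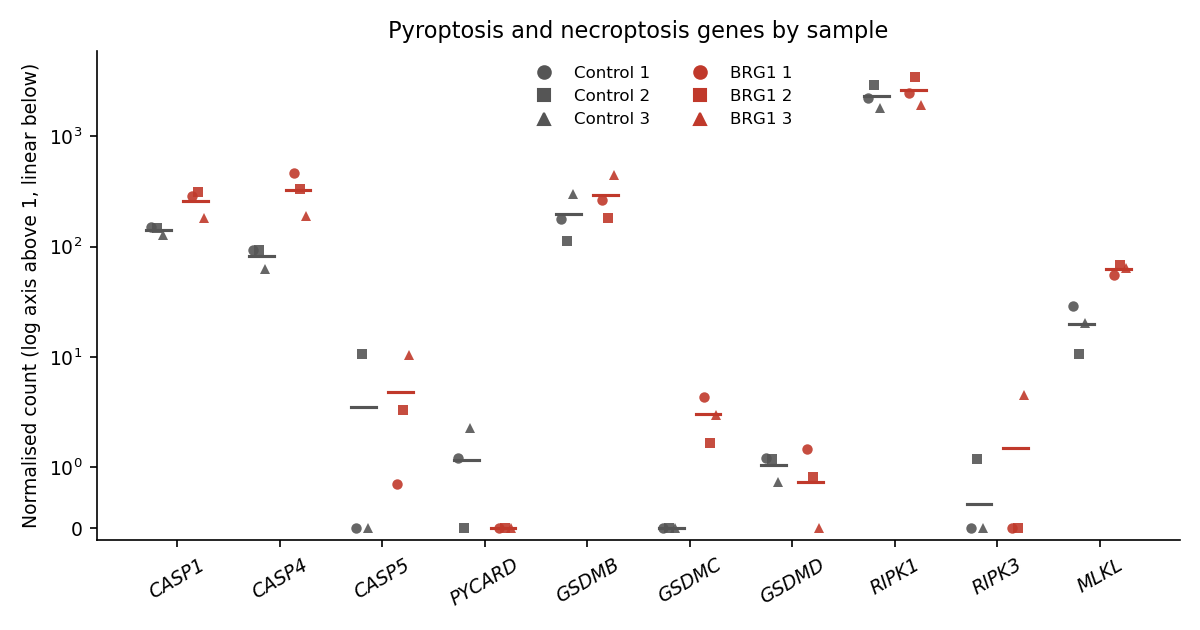
Normalised counts of the 10 members in each sample, on a vertical axis that is logarithmic above 1 and linear below, with Control in grey, BRG1 in red, a marker shape for each replicate number and a bar at each group mean. CASP1, CASP4 and MLKL separate by group, RIPK1 and GSDMB overlap, and PYCARD, GSDMD and RIPK3 lie at 4.48 or less in every sample.

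The inflammatory caspases sit beside each other on the minus strand of chromosome 11 (GRCh38, GENCODE release 44). CASP4 (ENSG00000196954.14, 104942866 to 104969366), the intracellular lipopolysaccharide receptor of the non-canonical inflammasome, held 93.8, 92.6 and 62.1 normalised counts in Control samples 1 to 3 and 466, 334 and 190 in samples 1 to 3 with BRG1. All 3 BRG1 samples lay above all Control samples, with BRG1 sample 3, the shallowest library, the lowest of them. The means were 82.8 ± 18.0 and 330 ± 138 (SD, n = 3), and the fitted difference was 2.00 ± 0.38 on the log2 scale (SE, DESeq2 adjusted p 2.2e-06, edgeR adjusted p 0.0107). CASP4 was the 1 member called in every alternative run.

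CASP1 (ENSG00000137752.25, 105025397 to 105035250), the protease that matures interleukin-1β and cuts GSDMD, held 151, 147 and 127 normalised counts in Control and 288, 315 and 181 with BRG1. The groups did not overlap, but BRG1 sample 3 stood closer to Control than to the other BRG1 samples. The means were 142 ± 12.7 and 261 ± 71.0 (SD, n = 3), and the fitted log2 difference was 0.89 ± 0.28 (SE, DESeq2 adjusted p 0.0151). This call was not held by edgeR (adjusted p 0.0961) or limma-voom (adjusted p 0.0866), nor by DESeq2 without Control replicate 1, 2 or 3 or BRG1 replicate 1 or 2, where the adjusted p ran from 0.0605 to 0.219. With the replicate number as a block it was held by DESeq2 (adjusted p 0.0125) and by edgeR (adjusted p 0.0262). CARD16, a neighboring gene that encodes a caspase-1-like CARD protein without a protease domain, holds 9.31% of the 31-base words of the CASP1 transcript, and in turn 35.9% of the CARD16 words occur in CASP1. The division of reads between them is therefore uncertain. CARD16 itself went from 174 ± 47.9 to 224 ± 58.6 normalised counts (SD, n = 3), and its log2 difference of 0.37 was not called (DESeq2 adjusted p 0.620). Within replicate numbers 1 to 3 CARD16 was higher by 1.04, 1.63 and 1.25 fold.

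CASP5 (ENSG00000137757.11, 104994235 to 105023168), a close relative of CASP4 with the same ligand, was barely present. It held 0, 10.6 and 0 normalised counts in Control and 0.73, 3.32 and 10.4 with BRG1. The groups overlapped, and the 95% interval of the log2 fold change, -3.44 to 4.33, leaves the direction undetermined (DESeq2 adjusted p 0.952). CASP4 and CASP5 share few 31-base words (3.55% of CASP4 and 3.18% of CASP5).

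Promoter windows from RefSeq (GRCh38.p14, 250 bases before to 50 after the start) were matched for 5 of the 10 members: CASP4, CASP5, MLKL, RIPK1 and PYCARD. The windows of CASP4 and MLKL, which rose, are shown beside that of CASP5, the neighbor of CASP4 that stayed near the floor. Each is written 5′ to 3′ on the minus strand, and capitals mark matches on either strand to 3 motifs searched: the core of the interferon-stimulated response element (a pair of GAAA words separated by any 2 bases), the STAT site TTCNNNGAA and the AP-1 site TGANTCA.
CASP4, chr11:104968525-104968824: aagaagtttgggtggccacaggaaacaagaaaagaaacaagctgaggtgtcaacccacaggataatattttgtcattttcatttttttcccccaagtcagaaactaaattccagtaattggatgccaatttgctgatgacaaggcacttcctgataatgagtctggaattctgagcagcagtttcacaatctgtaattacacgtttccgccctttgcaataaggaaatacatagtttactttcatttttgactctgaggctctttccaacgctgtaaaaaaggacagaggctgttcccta
CASP5, chr11:105023119-105023418: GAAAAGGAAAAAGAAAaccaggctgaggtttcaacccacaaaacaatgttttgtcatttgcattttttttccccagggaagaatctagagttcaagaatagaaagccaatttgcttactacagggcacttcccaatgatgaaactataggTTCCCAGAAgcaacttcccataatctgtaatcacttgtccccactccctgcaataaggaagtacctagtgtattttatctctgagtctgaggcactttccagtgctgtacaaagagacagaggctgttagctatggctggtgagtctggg
MLKL, chr16:74700813-74701112: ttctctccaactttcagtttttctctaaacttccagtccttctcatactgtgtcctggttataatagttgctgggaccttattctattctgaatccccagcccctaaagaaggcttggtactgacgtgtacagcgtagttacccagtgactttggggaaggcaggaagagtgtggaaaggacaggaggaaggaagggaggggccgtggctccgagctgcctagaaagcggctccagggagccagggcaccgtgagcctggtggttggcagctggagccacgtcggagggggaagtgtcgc
The CASP4 and MLKL windows held no match to any of the 3 motifs. The CASP4 window ends at 104968824 and does not reach the GENCODE 5′ end of the gene at 104969366, where no window was searched. The CASP5 window held 2 overlapping matches to the response element core, GAAAAGGAAA and GAAAAAGAAA, which begin at positions -250 and -244 from the transcript start, and the STAT site TTCCCAGAA, which begins at position -100. Over all 35116 promoter windows, 3.57% held the response element core, 7.66% the STAT site and 7.71% the AP-1 site. A global alignment of the CASP4 and CASP5 windows had 68.2% identical columns, against 45.3% for CASP4 and MLKL. Of 3 RIPK1 windows, 2 overlapping ones held the same reverse match to the response element core, TTTCGGTTTC, and the PYCARD window held none. These matches are descriptions of sequence, and a window without one shows only that these letters are missing from it.

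The adaptor PYCARD (ENSG00000103490.14, chromosome 16, 31201486 to 31203450, minus strand) links most sensors to caspase-1. Its normalised counts were 1.22, 0 and 2.27 in Control and 0 in all 3 BRG1 samples, where 0 allows up to 2.18 to 4.48 normalised counts. No sample held more than 3 counts, so no fold is given. Exons of other genes, chiefly the antisense gene PYCARD-AS1, cover 59.7% of its exonic bases, and the unstranded libraries cannot assign such reads to a strand.

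Of the 3 gasdermins among the members, pore-forming substrates of such proteases, GSDMB was above the floor in every sample, and GSDMC and GSDMD were not. GSDMB (ENSG00000073605.19, chromosome 17, 39904595 to 39919854, minus strand), which granzyme A is known to cut, held 178, 113 and 301 normalised counts in Control and 263, 180 and 443 with BRG1. The ranges overlapped, and the samples fell in the same order within both groups, with sample 3 the highest and sample 2 the lowest. The log2 fold change was 0.57 with a 95% interval of -0.29 to 1.44 (DESeq2 adjusted p 0.552). With the replicate block the adjusted p was 0.0517 under DESeq2 and 0.0513 under edgeR, and GSDMB was higher in 3 of 3 replicate numbers, by 1.48, 1.60 and 1.47 fold.

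GSDMD (ENSG00000104518.11, chromosome 8, 143553207 to 143563062, plus strand), the main substrate of caspase-1 and caspase-4, was at the floor throughout. Its normalised counts were 1.22, 1.17 and 0.76 in Control and 1.45, 0.83 and 0 with BRG1. GSDMC (ENSG00000147697.9, chromosome 8, 129748196 to 129786624, minus strand), a gasdermin of squamous epithelia, was at 0 in all Control samples and at 4.35, 1.66 and 2.99 with BRG1. The latter correspond to 6.23, 2.29 and 2.29 estimated counts, so that 2 of these 3 samples lay under the floor. Their mean was 0.95 times the floor, which bounds no increase. CASP4 thus rose, and CASP1 was called by DESeq2 but not by edgeR, in samples in which a change of GSDMD was not detectable at this depth.

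On the necroptosis side, RIPK1 was abundant, RIPK3 was at the floor and MLKL was low but rose. RIPK1 (ENSG00000137275.16, chromosome 6, 3063824 to 3115187, plus strand), the kinase that relays TNF receptor signals to survival or death, held 2241, 2923 and 1822 normalised counts in Control and 2502, 3499 and 1948 with BRG1. The groups overlapped. The log2 fold change was 0.19 with a 95% interval of -0.35 to 0.72 (DESeq2 adjusted p 0.821), and it turned to -0.064 without BRG1 replicate 2. RIPK3 (ENSG00000129465.16, chromosome 14, 24336025 to 24340022, minus strand), the kinase that activates MLKL, held 0, 1.17 and 0 normalised counts in Control and 0, 0 and 4.48 with BRG1. None of these exceeded 3 counts, and no fold is given.

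MLKL (ENSG00000168404.13, chromosome 16, 74671855 to 74700960, minus strand), the executioner of necroptosis, held 29.2, 10.6 and 20.4 normalised counts in Control and 55.1, 68.1 and 64.2 with BRG1. The BRG1 samples lay close together and above all Control samples. The means were 20.1 ± 9.35 and 62.5 ± 6.66 (SD, n = 3), and the fitted log2 difference was 1.64 ± 0.47 (SE, DESeq2 adjusted p 0.00586, edgeR adjusted p 0.0492). The call was lost without BRG1 replicate 2 (DESeq2 adjusted p 0.133) and, narrowly, without Control replicate 3 (DESeq2 adjusted p 0.050). Neither other genes' exons nor shared 31-base words touch MLKL.

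**Figure D2:**
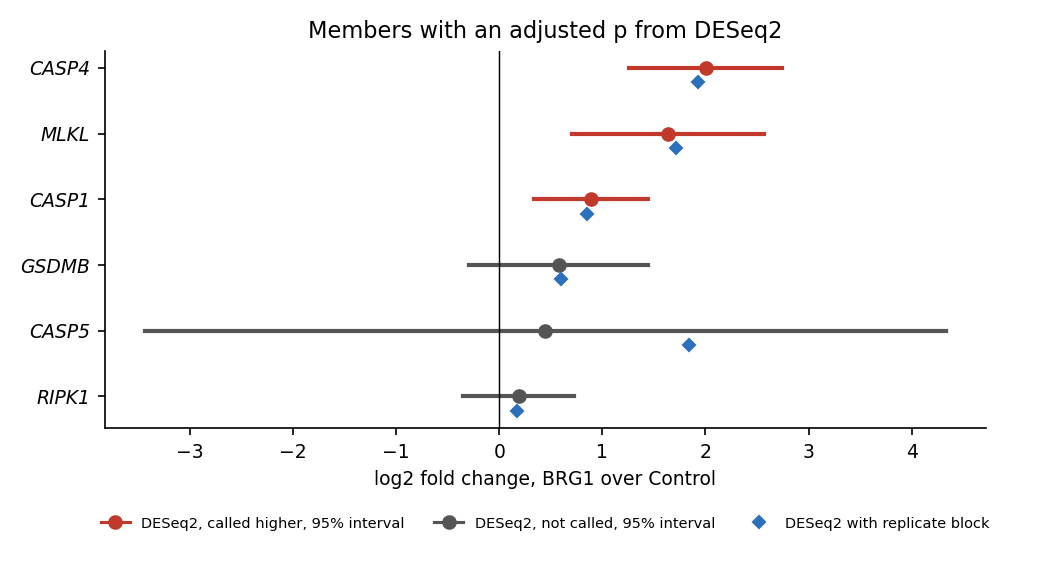
Fitted log2 fold changes (horizontal axis, BRG1 over Control) of the 6 members with an adjusted p, with 95% intervals from DESeq2 in red where called and grey where not, and the estimate with the replicate block as a blue diamond. The intervals of CASP4, MLKL and CASP1 lie above 0, and that of CASP5 runs from -3.44 to 4.33.

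The replicate numbers marked samples that deviated together, so the fold was also taken within each number. CASP4 was higher by 4.96, 3.60 and 3.05 fold in numbers 1 to 3, CASP1 by 1.91, 2.15 and 1.42 fold, and MLKL by 1.89, 6.45 and 3.14 fold. RIPK1 differed least, by 1.12, 1.20 and 1.07 fold. These 4 and GSDMB, the 5 members detected in every sample above the floor, were higher in 3 of 3 numbers. The share of all genes higher in 3 of 3 was not computed, so this count shows no excess among the members. The block called neither RIPK1 nor GSDMB and added no member to the 3 calls. With it DESeq2 called 3 members higher and 0 lower, against 13.4% and 6.61% of tested genes, and edgeR did the same, against 13.7% and 5.68%.

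**Figure D3:**
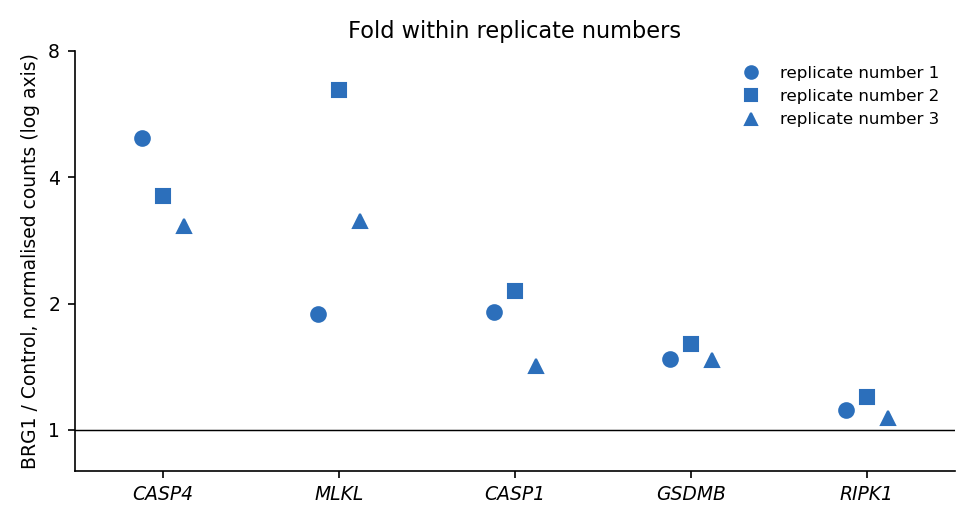
Ratio of BRG1 to Control normalised counts within each replicate number (vertical log axis), for the 5 members detected in every sample, with a marker shape for each number. Every ratio lies above 1, from 1.07 for RIPK1 to 6.45 for MLKL.

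Levels of different genes were compared as counts per kilobase of the canonical transcript, rescaled to a fixed sum over the 18216 genes with a length, as in TPM. RIPK1 stood highest, at 24.4 ± 5.38 in Control and 30.9 ± 9.43 with BRG1 (SD, n = 3), above the sample medians of detected genes (9.15 to 10.4). In Control, GSDMB followed at 5.36 ± 2.63, then CASP1 at 3.04 ± 0.30 and CASP4 at 2.74 ± 0.60 (SD, n = 3), and these 3 neighbors overlapped in range. In BRG1 samples the order was CASP4 at 12.2 ± 5.11, GSDMB at 8.88 ± 3.98 and CASP1 at 6.25 ± 1.75 (SD, n = 3), again with overlapping ranges. MLKL was at 0.36 ± 0.17 and 1.21 ± 0.13 (SD, n = 3), below CASP1 and CASP4 in every sample. CASP5, GSDMC, GSDMD, PYCARD and RIPK3 all lay at 0.33 or less in every sample. CASP1 and MLKL thus remained below the sample medians of detected genes with BRG1 as well.

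The wider pathway was then described with 77 further genes in 9 functional lists, none of which holds a member. The lists were chosen with earlier results of these data known, so their counts of calls are not an independent test of the pathway. Of 67 with an adjusted p, DESeq2 called 19 higher and 0 lower, against the 11.0% and 1.84% of all tested genes. Before adjustment p was under 0.05 for 26 higher and 1 lower, against 2420 and 884 of the 18096 genes with a count. The edgeR test called 15 of 61 higher and 0 lower. Their median log2 fold change was 0.33, against a median of -0.00 over all genes. With genes at the floor in Control at their bound, and those at the floor in both groups left out, it was 0.30 over 70 genes. Over the 16452 genes treated alike it was -0.02. With the replicate block DESeq2 called 29 higher and 0 lower, all of the 19 included, against 13.4% and 6.61% of tested genes. With it edgeR called 25 higher and 0 lower, against 13.7% and 5.68%. By DESeq2 without the block, 14 of the 19 calls lay in the cytokine, receptor and transcription factor lists, 5 among proteases, checkpoints and partners of RIPK3 and MLKL, and 0 among sensors, caspase regulators and the remaining gasdermins. These last lists held only 8, 5 and 3 genes with an adjusted p, too few to set 0 calls apart from the 11.0% share.

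Of 10 inflammasome sensors, 8 had a DESeq2 adjusted p and 5 an edgeR one. Of these, 0 were called in either direction, against 11.0% and 9.57% of all tested genes called higher. At an unadjusted p under 0.05, 1 sensor was higher. That gene was NLRP1, the sensor best known in keratinocytes, which held 444 ± 119 normalised counts in Control and 710 ± 241 with BRG1 (SD, n = 3; log2 fold change 0.68, DESeq2 adjusted p 0.157). With the block its adjusted p was 0.00315 under DESeq2 and 0.0190 under edgeR. CARD8, a sensor that acts without PYCARD, held 445 ± 40.6 and 546 ± 83.7 (SD, n = 3; log2 fold change 0.29, DESeq2 adjusted p 0.452). The DNA sensor AIM2 lay between 0 and 3.63 normalised counts in all samples, NLRP3 reached 16.0 in BRG1 sample 1 and 3.32 or less elsewhere, and MEFV did not exceed 10.2. NLRC4 lay between 39.9 and 56.0 with no separation of the groups.

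Of the 9 regulators of inflammatory caspases with a row, 5 had a DESeq2 adjusted p and 4 an edgeR one. Of these, 0 were called, and 0 regulators had an unadjusted p under 0.05. CARD17 and CARD18, CARD genes beside CASP1, stayed at or below 4.69 and 1.49 normalised counts. Of the remaining gasdermins and rupture genes, DESeq2 and edgeR each tested 3 and called 0. GSDME (listed as DFNA5), the substrate of caspase-3, was the 1 gene with a lower unadjusted p under 0.05, at 902 ± 83.3 normalised counts in Control and 698 ± 90.1 with BRG1 (SD, n = 3; log2 fold change -0.37, DESeq2 adjusted p 0.186). All Control samples lay above all BRG1 samples for it. PJVK (listed as DFNB59) lay between 70.4 and 110 in both groups, GSDMA did not exceed 2.35, and NINJ1, which ruptures the membrane after pore opening, was not called (log2 difference 0.25, DESeq2 adjusted p 0.510).

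Of 7 proteases that cut gasdermins, DESeq2 and edgeR both called 1 higher and 0 lower. CASP8, which restrains necroptosis and can start pyroptosis, separated by group at 1382 to 1484 against 1680 to 1924 normalised counts but was not called (log2 fold change 0.30, DESeq2 adjusted p 0.122).

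The cytokines that leave cells through gasdermin pores, and their antagonists, had a median log2 fold change of 6.67, or 6.16 with the gene at the floor in Control at its bound. DESeq2 and edgeR both called 4 of 5 higher. IL1B held 9.75, 4.69 and 1.51 normalised counts in Control and 1288, 583 and 476 with BRG1 (log2 fold change 7.30, DESeq2 adjusted p 8.1e-33, edgeR adjusted p 0.000398). IL18, the other caspase-1 substrate, held 11.0, 8.21 and 4.54 against 1475, 616 and 267 (log2 fold change 6.67, DESeq2 adjusted p 6.3e-25, edgeR adjusted p 0.00112). IL1A, near the floor in Control at 3.65, 4.69 and 0, held 338, 113 and 91.0 with BRG1 (log2 fold change 6.16, edgeR adjusted p 0.00393). The receptor antagonist gene IL1RN, at the floor in Control, was at least 47.2-fold higher (edgeR adjusted p 0.00139). For each of these 4 genes the lowest BRG1 sample still lay above the highest Control sample, and BRG1 sample 3 was the lowest of its group.

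Of 11 receptors and sensors that feed RIPK1 and RIPK3, DESeq2 called 6 higher and edgeR 4. ZBP1, the nucleic acid sensor that engages RIPK3 through its RHIM domain, was at 0 in all Control samples and at 19.6, 25.8 and 16.4 normalised counts with BRG1, at least 6.54-fold higher (DESeq2 adjusted p 3.9e-05, edgeR adjusted p 0.00458). TLR3, the double-stranded RNA receptor that signals through TICAM1, rose from 6.91 ± 3.16 to 172 ± 54.1, and TLR4 from 13.0 ± 7.35 to 304 ± 189 (SD, n = 3), with edgeR adjusted p of 0.000574 and 0.00427. The death receptor gene FAS rose by 1.43 on the log2 scale (DESeq2 adjusted p 1.2e-07, edgeR adjusted p 0.00443). TNFRSF1A, the main TNF receptor, had a log2 difference of 0.59 that DESeq2 called (adjusted p 0.0246) and edgeR did not (adjusted p 0.0737), although with the block both called it. The remaining call, TNF, was named after its values were seen and was not tested by edgeR. Its BRG1 counts of 65.3, 26.6 and 2.99 overlapped the Control range of 0 to 6.09. TICAM1, FADD and CFLAR, the adaptors and the caspase-8 inhibitor, had log2 fold changes of 0.46, 0.30 and 0.35 and were not called (DESeq2 adjusted p 0.230, 0.276 and 0.448). With the block both tools called TICAM1 and CFLAR (DESeq2 adjusted p 0.0111 and 0.00223, edgeR adjusted p 0.0284 and 0.0227).

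Of 15 ubiquitin and kinase checkpoints on RIPK1, DESeq2 called 2 higher, RBCK1 and IKBKE. RBCK1, a subunit of the linear ubiquitin ligase LUBAC, rose from 5231 ± 427 to 8671 ± 562 normalised counts (SD, n = 3; log2 fold change 0.73, DESeq2 adjusted p 1.0e-06, edgeR adjusted p 0.00412). IKBKE was named after its values were seen, was at the floor in Control and was not tested by edgeR. With the replicate block DESeq2 called 5 of the 15 higher and 0 lower. The 3 gained were TNFAIP3, CYLD and RNF31 (DESeq2 adjusted p 0.00878, 0.00705 and 0.0393), also named after their values were seen, and edgeR with the block called TNFAIP3 and CYLD but not RNF31 (adjusted p 0.0856). TNFAIP3, which encodes the ubiquitin-editing enzyme A20, was higher by 6.87, 3.37 and 1.70 fold within numbers. Of 8 partners of RIPK3 and MLKL, both tools called PELI1 (log2 fold change 1.82, edgeR adjusted p 0.0262), a ubiquitin ligase that acts on RIPK3, and ITPK1 (0.89, edgeR adjusted p 0.00926), a kinase of the inositol phosphates that license MLKL.

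Of 8 transcription factors known to act on such genes, DESeq2 called 4 higher. IRF9 and STAT2, which carry the type I interferon signal to its target genes, had log2 fold changes of 2.13 and 1.33 (edgeR adjusted p 6.3e-05 and 0.00104). IRF2, known as an activator of GSDMD, had one of 0.51 (DESeq2 adjusted p 0.0264) that edgeR did not call (adjusted p 0.108). IRF1 differed more between replicate numbers than between groups. It held 6400, 5760 and 570 normalised counts in Control and 14244, 16698 and 2233 with BRG1, so that sample 3 was far below the others in both groups. It was not called without the block (DESeq2 adjusted p 0.586), whereas within numbers it was higher by 2.23, 2.90 and 3.92 fold. The block gave a DESeq2 adjusted p of 1.1e-21 and an edgeR adjusted p of 0.000565.

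**Figure D4:**
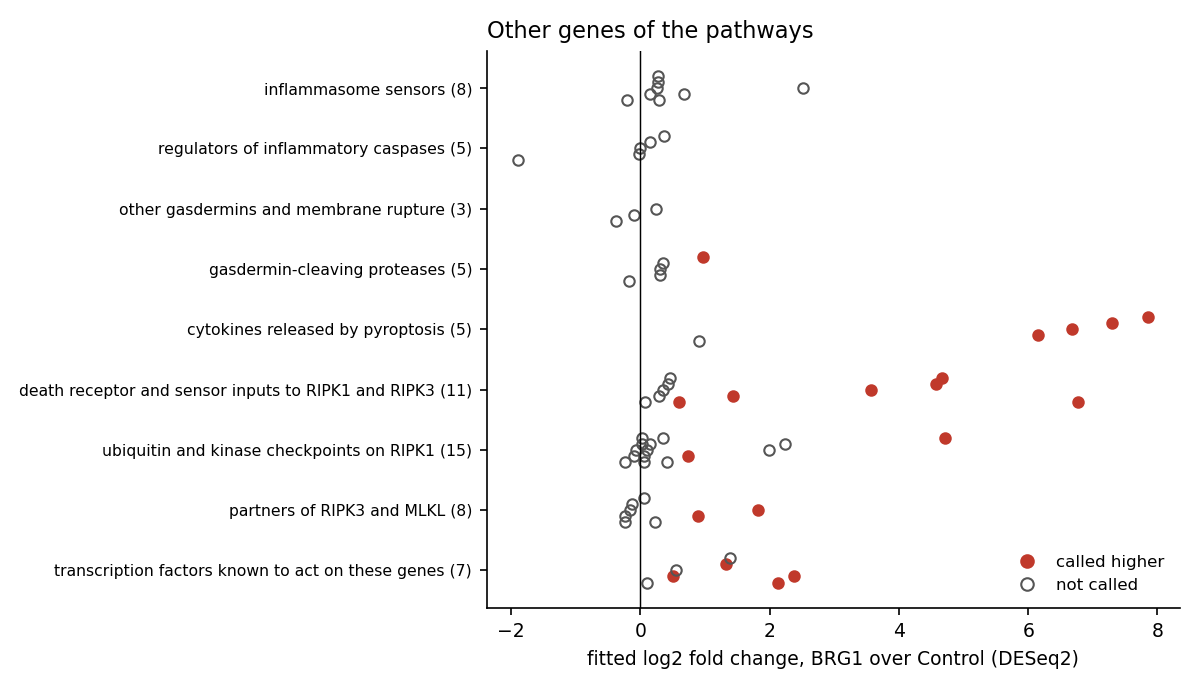
Fitted log2 fold changes (horizontal axis, BRG1 over Control, DESeq2) of the pathway genes with an adjusted p, by functional list with the number plotted in brackets. Filled red points were called higher and open points were not called, with the vertical offset within a list only for legibility. Fitted values of genes at the floor in Control, such as ZBP1, IL1RN and IKBKE, are not bounds. The 4 called cytokine genes lie above 6, and the sensors, caspase regulators and remaining gasdermins hold 0 calls among 8, 5 and 3 plotted genes.

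Since inflammasome genes are also markers of myeloid cells, 12 immune cell markers were examined. Their summed level ran from 364 to 691 normalised counts in Control and from 397 to 770 with BRG1. PTPRC made up most of it in both groups, at 336 to 669 and 360 to 722. ITGAM, SPI1, TYROBP, CD3E and MS4A1 did not exceed 2.90 in any sample, and LYZ was the 1 marker called, at 0 to 2.44 in Control and 13.8 to 22.4 with BRG1 (DESeq2 adjusted p 0.00261, edgeR adjusted p 0.00938). In bulk RNA, a change in the share of cells that express a gene and a change in its RNA per cell cannot be told apart.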

How the data were processed

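Poly(A) RNA was sequenced as unstranded read pairs of 78 bases from 3 Control and 3 BRG1 samples. The authors aligned reads with STAR (version 2.5.3a, hg38), quantified them with salmon (version 0.8.2) against GENCODE and summed transcripts to genes with tximport. For each gene symbol the authors deposited estimated counts, scaled by transcript length and library size (lengthScaledTPM) and not divided by depth. Reads shared by several genes are apportioned by the salmon model, so related genes have uncertain values.

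Estimated counts were rounded and tested over all genes with DESeq2 (version 1.42.0, R 4.3.3), the tool named in the study's methods, as BRG1 against Control without covariate, and called at a Benjamini-Hochberg adjusted p under 0.05. Normalised counts are counts divided by DESeq2 size factors. The alternatives were edgeR (version 4.0.16), limma-voom (version 3.58.1), TMM size factors, 2 filters, a threshold of 0.01, the replicate block and leaving out each sample. In simulated data (200 genes changed by 2 on the log2 scale, 18096 genes) DESeq2 recovered 97.5% with a false share of 22.3% of calls, and edgeR, over 14277 genes, recovered 87.5% with 2.23%, so edgeR values are given beside DESeq2 calls. With 2000 changed genes the false shares were 8.16% and 4.14%. With the replicate block they were 23% for DESeq2 and 3.93% for edgeR with 200 changed genes, and 8.73% and 4.08% with 2000. The simulation gave the replicate number no effect, whereas same-numbered samples here deviated together. The false shares therefore need not hold for these samples, above all for calls made with the block.

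Deviations from group means correlated between same-numbered samples (r = 0.34, 0.30 and 0.46 over 14225 genes), against -0.36 to 0.06 between the others. The numbers were therefore treated as pairing the samples. This pairing is inferred from the same data, and neither the sample titles nor the study states it. The study calls the samples biological replicates, and replicates differed by more than counting noise. Named genes were the members, genes fixed by role (such as ZBP1, NLRP1 and IRF1), and in each list up to 4 called genes with the largest change, a mean of at least 20 normalised counts and no overlap between groups, plus any called lower. The members and lists were chosen with earlier results of these data known. CASP12 was not analysed here. Some genes of the lists are counted in them but not reported here by name. No protein sequences were used here.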

Additional observations from a re-analysis of the deposited data

How the results depend on the processing

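SMARCA4 was called higher in all 14 alternatives, and 0 members were called lower in any. Members called higher (3) numbered 2 with edgeR, limma-voom and the threshold of 0.01, and ran from 1 to 3 when a sample was left out, with 1 without Control replicate 3 or BRG1 replicate 2, where CASP4 remained. Pathway genes called higher (19) were 29 with the replicate block and ran from 17 to 21 when a sample was left out. Pathway genes called lower (0) ran from 0 to 1, the 1 being XIAP without BRG1 replicate 3 (named after its values were seen). CASP4 kept its call in all 14 alternatives, with log2 fold changes from 1.67 to 2.28, MLKL lost it in 2 and CASP1 in 8. With the replicate block no call of a member changed (CASP4 1.93, MLKL 1.72 and CASP1 0.85 on the log2 scale). CASP5 turned negative without Control replicate 1 (-0.14), Control replicate 3 (-0.17) or BRG1 replicate 3 (-0.79), and RIPK1 without BRG1 replicate 2 (-0.064). Their ranges when a sample was left out were -0.79 to 4.74 and -0.064 to 0.38. The cause of these changes was not tested. At 3 counts or fewer in a library (6.23 for GSDMC in BRG1 sample 1), changes of PYCARD, GSDMD, RIPK3 and GSDMC were not detectable at this depth.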
